A study of Oryza longistaminata with 12 samples.

Results

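Of the 29335 gene models counted in roots of *O. longistaminata* ramet pairs, 8 genes met a rule for higher expression with a deprived partner. Each was at least 1.3 times as high in every root whose partner ramet received no ammonium as in every root whose partner was supplied. Expression was taken as CPM, the count of a gene per 1000000 counts of its library. A gene was included when its mean was at least 2 CPM in both −N and +N split roots and when the lowest of the 6 libraries with a deprived partner was at least 1.3 times the highest of the 6 libraries with a supplied partner. The 4 genes OL09T001188, OL01T000575, OL03T002532 and unmappedContigsT001274 were left out by name, and none of them reaches the ratio of 1.3. The mean CPM criterion was met by 19706 genes, of which the 8 genes were 0.0406%. Without the ratio of 1.3, 132 of the 19706 genes, or 0.67%, had all libraries with a deprived partner above all with a supplied one. The 8 genes were chosen by their CPM in these same libraries, so their difference between deprived and supplied partners is a description and was not tested.

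*O. longistaminata* is a wild rice of wetlands, and its ramets are young plants that stay connected by a rhizome. Ramet pairs of strain IRGC10404 with 2 to 3 developed leaves, raised hydroponically at 1 mM NH4Cl, had their roots placed in separate pots for 24 h. Roots of 4 groups with 3 libraries each were sequenced. Neither root of a −N pair had NH4Cl (0 mM), a split pair had one root at 2.5 mM (+N split) and the other at 0 mM (−N split), and a +N pair had both at 2.5 mM. The roots with a deprived partner were therefore those of −N and +N split, and the roots with a supplied partner those of −N split and +N. All values are from root RNA, so fewer cells of a type and less RNA per cell cannot be told apart. The methods describe the replicates behind the study's graphs as separately prepared ramet pairs, while the labels do not say so for the 3 libraries of a group, and the p-values measure the spread between these libraries.

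Ammonium is the main form of nitrogen in flooded soil, and roots take it up and assimilate it through glutamine synthetase and glutamate synthase. In plants with roots in separate compartments, the response of a root depends on its own supply and also on signals that report the supply of the distant root. In a clonal plant, such a signal can pass through the stem that joins neighbouring plants. The 4 groups cross the supply of the root itself with the supply of its partner, which allows both to be described for each gene.

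The library totals ranged from 39071838 to 56252511 counts, and the trimmed mean of M values (TMM) factors, which correct for RNA composition, from 0.922 to 1.07. The 8 genes had 10 to 3452 counts per library. One −N library, replicate 1, carries a treatment text that describes the split treatment, while its title gives −N, and the title was followed. Over genes with the mean CPM required, its log2 expression correlated at 0.99 with the average profile of the 2 other −N libraries. Its correlation with the average profile of the 3 −N split libraries was 0.973. Among markers of shoot tissue, 23 photosynthesis genes summed to 1470 to 2221 CPM under −N, 1421 to 3303 CPM under +N split, 659 to 2229 CPM under −N split and 2340 to 3002 CPM under +N, and none of them was at 0 in all libraries.

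Descriptions in the readable tables of the study give a known protein type for 3 of the 8 genes. Of all 3992 genes in those tables, 3199 have a description other than an identifier, NA or function unknown. OL04T000458 is described by the abbreviation for the rhodanese homology domain, a fold of enzymes that transfer sulfur. OL07T000725 is described as a resistance protein and OL04T000537 as a disease resistance protein, a name usually given to receptors that sense pathogens inside the plant cell. OL08T001049 is described as of unknown function. OL04T002529, OL05T001770, OL05T001328 and OL06T000031 have only the names of their own transcripts as descriptions. No sequence of these genes was used here.

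**Figure D1:**
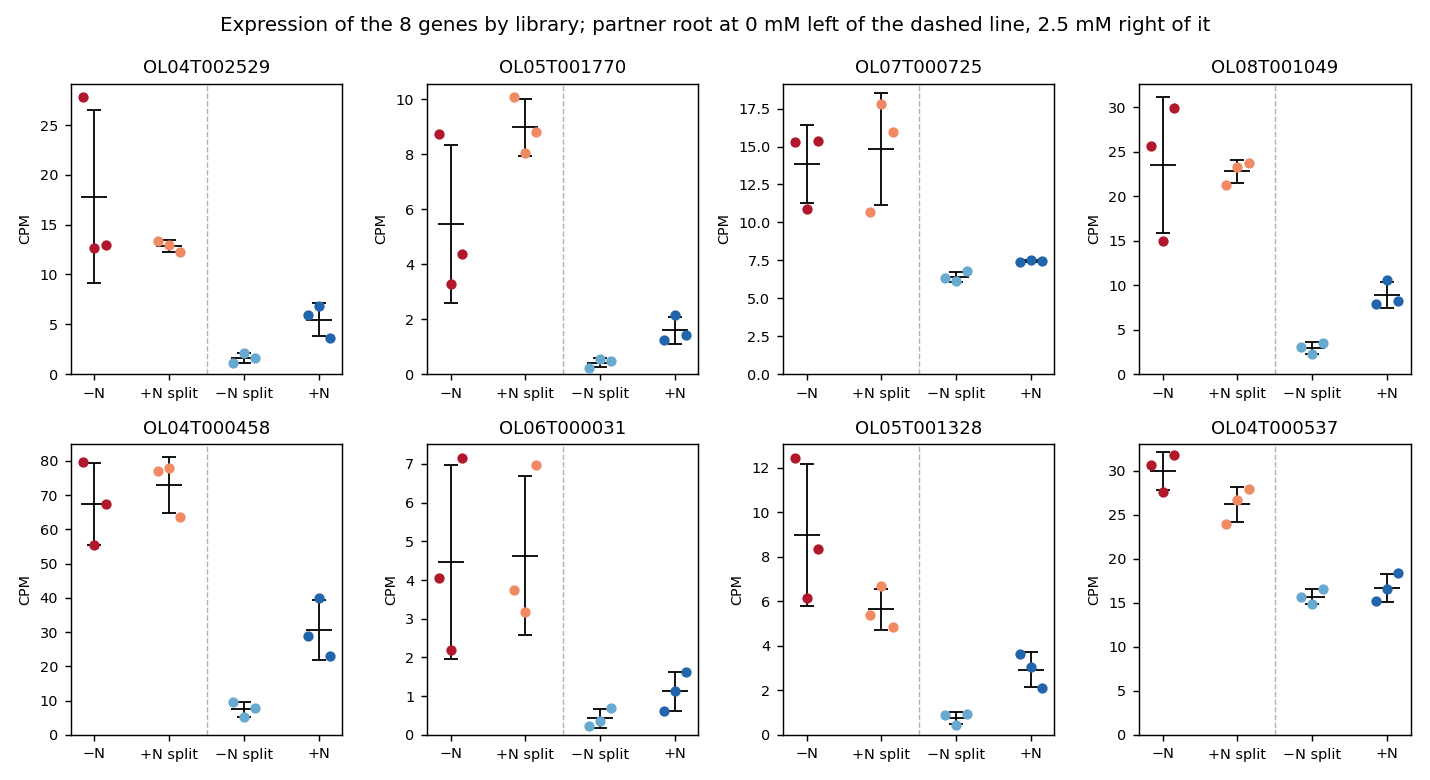
Expression of each of the 8 genes in CPM (linear axis from 0), with a point for each library, a horizontal bar for the group mean and error bars of 1 SD (n = 3). The 6 libraries with a deprived partner (−N, +N split) lie left of the dashed line and above the 6 with a supplied partner (−N split, +N) in every panel, which the choice of the genes fixes. The −N split libraries are below the +N libraries without overlap in 6 of the 8 panels.

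The gene for the rhodanese domain protein, OL04T000458, had 79.6, 55.5 and 67.3 CPM under −N and 77.1, 78.1 and 63.6 CPM under +N split. It had 9.60, 5.23 and 7.74 CPM under −N split, against 28.9, 40.03 and 23.0 CPM under +N. The −N and +N split libraries overlapped, and all −N split libraries were below all +N libraries. With a supplied partner the gene fell by 2.10 on the log2 scale in −N split relative to +N roots (standard error 0.234, Benjamini-Hochberg adjusted p = 8.53e-05, quasi-likelihood test of edgeR). When the partner was deprived, the log2 fold change in −N relative to +N split roots was −0.21 (95% interval −0.68 to 0.26). Deprivation of the partner went with 8.96 times the mean CPM in deprived roots (−N over −N split) and 2.38 times in supplied roots (+N split over +N).

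The resistance protein gene OL07T000725 had 15.3, 10.9 and 15.4 CPM under −N and 10.7, 17.8 and 16.0 CPM under +N split. It had 6.32, 6.12 and 6.77 CPM under −N split, against 7.37, 7.52 and 7.44 CPM under +N. The libraries with a supplied partner lay close together, although all −N split libraries were below all +N libraries. In −N split relative to +N roots its log2 fold change was −0.29 (95% interval −0.71 to 0.13, Benjamini-Hochberg adjusted p = 0.315, quasi-likelihood test of edgeR), and in −N relative to +N split roots it was −0.20 (95% interval −0.61 to 0.21). The means with a deprived partner were 2.16 times those with a supplied partner in deprived roots (−N over −N split) and 1.99 times in supplied roots (+N split over +N).

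The disease resistance protein gene OL04T000537 had 30.6, 27.6 and 31.7 CPM under −N and 24.0, 26.7 and 27.9 CPM under +N split. It had 15.6, 14.8 and 16.6 CPM under −N split, against 15.2, 16.6 and 18.4 CPM under +N. The libraries of roots with the same partner supply overlapped on both sides. The log2 fold change for the root's own deprivation was 0.09 with a deprived partner (95% interval −0.15 to 0.33) and −0.16 with a supplied partner (95% interval −0.40 to 0.07). This gene had the smallest folds for the partner, 1.91 in deprived roots (−N over −N split) and 1.57 in supplied roots (+N split over +N). Both of its intervals for the root's own supply exclude a change of 2-fold, as do those of OL07T000725. The rule chose both genes on these libraries and limits the values behind such differences, so the intervals are a description.

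The gene of unknown function, OL08T001049, had 25.6, 14.99 and 29.9 CPM under −N and 21.3, 23.3 and 23.8 CPM under +N split. It had 3.02, 2.25 and 3.53 CPM under −N split, against 7.85, 10.6 and 8.23 CPM under +N. As for OL04T000458, the libraries overlapped where the partner was deprived, and all −N split libraries were below all +N libraries. The log2 fold change in −N split relative to +N roots was −1.67 (standard error 0.250, Benjamini-Hochberg adjusted p = 0.000649, quasi-likelihood test of edgeR). In −N relative to +N split roots it was −0.06 (95% interval −0.55 to 0.44). The mean CPM with a deprived partner was 8.02 times that with a supplied partner in deprived roots (−N over −N split) and 2.56 times in supplied roots (+N split over +N).

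OL04T002529 had the largest gap between the 2 sets of libraries, a ratio of 1.79 between the lowest library with a deprived partner and the highest with a supplied one. It had 27.8, 12.6 and 12.9 CPM under −N and 13.4, 13.0 and 12.2 CPM under +N split. It had 1.13, 2.07 and 1.60 CPM under −N split, against 5.96, 6.85 and 3.58 CPM under +N. The first −N library, the one with the conflicting treatment text, was more than 2 times as high as any other library, and the other −N libraries lay within the range of +N split. In −N relative to +N split roots the log2 fold change was 0.37 (95% interval −0.32 to 1.05), and it was −0.12 without the first −N library. The log2 fold change in −N split relative to +N roots was −1.84 (standard error 0.355, Benjamini-Hochberg adjusted p = 0.00325, quasi-likelihood test of edgeR). The mean CPM with a deprived partner was 11.1 times that with a supplied partner in deprived roots (−N over −N split) and 2.35 times in supplied roots (+N split over +N).

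OL05T001328 had 12.4, 6.15 and 8.34 CPM under −N and 5.36, 6.67 and 4.86 CPM under +N split. It had 0.897, 0.444 and 0.941 CPM under −N split, against 3.62, 3.07 and 2.08 CPM under +N. It was the gene with the largest positive log2 fold change in −N relative to +N split roots, 0.57 (95% interval −0.06 to 1.21), and its libraries overlapped there. In −N split relative to +N roots the log2 fold change was −2.00 (standard error 0.339, Benjamini-Hochberg adjusted p = 0.00146, quasi-likelihood test of edgeR), so the values for the root's own deprivation had opposite signs under the 2 partner supplies. The mean CPM with a deprived partner was 11.8 times that with a supplied partner in deprived roots (−N over −N split) and 1.92 times in supplied roots (+N split over +N).

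OL05T001770 had 8.73, 3.27 and 4.37 CPM under −N and 10.1, 8.03 and 8.82 CPM under +N split. It had 0.236, 0.543 and 0.470 CPM under −N split, against 1.24, 2.16 and 1.41 CPM under +N. The mean was smaller in −N than in +N split roots and in −N split than in +N roots, although 1 −N library lay within the range of +N split. The log2 fold change was −2.01 in −N split relative to +N roots (standard error 0.430, adjusted p = 0.00576) and −0.82 in −N relative to +N split roots (standard error 0.342, adjusted p = 0.105), both with Benjamini-Hochberg adjustment in the quasi-likelihood test of edgeR. Its folds for the partner were the largest of the 8 genes, 13.1 in deprived roots (−N over −N split) and 5.60 in supplied roots (+N split over +N). The low values rest on 10 to 22 counts per −N split library.

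The identifier next to OL05T001770 is OL05T001771, a gene for pyruvate decarboxylase, the enzyme that takes pyruvate into fermentation. The counts of OL05T001770 were 0.198% to 0.392% of those of OL05T001771 in −N roots, 0.185% to 0.251% in +N split roots, 0.144% to 0.309% in −N split roots and 0.139% to 0.149% in +N roots. This share differed by less than 3 times over all 12 libraries, in which OL05T001770 itself ranged from 0.236 to 10.1 CPM. OL05T001771 itself averaged 1943 CPM under −N, 4202 CPM under +N split, 238 CPM under −N split and 1114 CPM under +N. The strand setting of the counting is not given in the sources used here and gene positions were not used, so whether reads of one gene were counted on the other was not tested.

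OL06T000031 had the largest standard errors of the 8 genes for the root's own supply. It had 4.04, 2.19 and 7.16 CPM under −N and 3.73, 3.19 and 6.98 CPM under +N split. It had 0.236, 0.346 and 0.706 CPM under −N split, against 0.620, 1.13 and 1.63 CPM under +N. The third library was the highest of its group in all 4 groups, and the −N split and +N libraries overlapped. The log2 fold change in −N split relative to +N roots was −1.47 (95% interval −2.73 to −0.21, Benjamini-Hochberg adjusted p = 0.0874, quasi-likelihood test of edgeR), and in −N relative to +N split roots it was −0.17 (95% interval −1.20 to 0.86). Neither interval excludes a change of 2-fold. The DESeq2 Wald test called the gene lower in −N split relative to +N roots, and over all alternatives its Benjamini-Hochberg adjusted p in that comparison ranged from 0.0115 to 0.271 (edgeR or DESeq2).

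**Figure D2:**
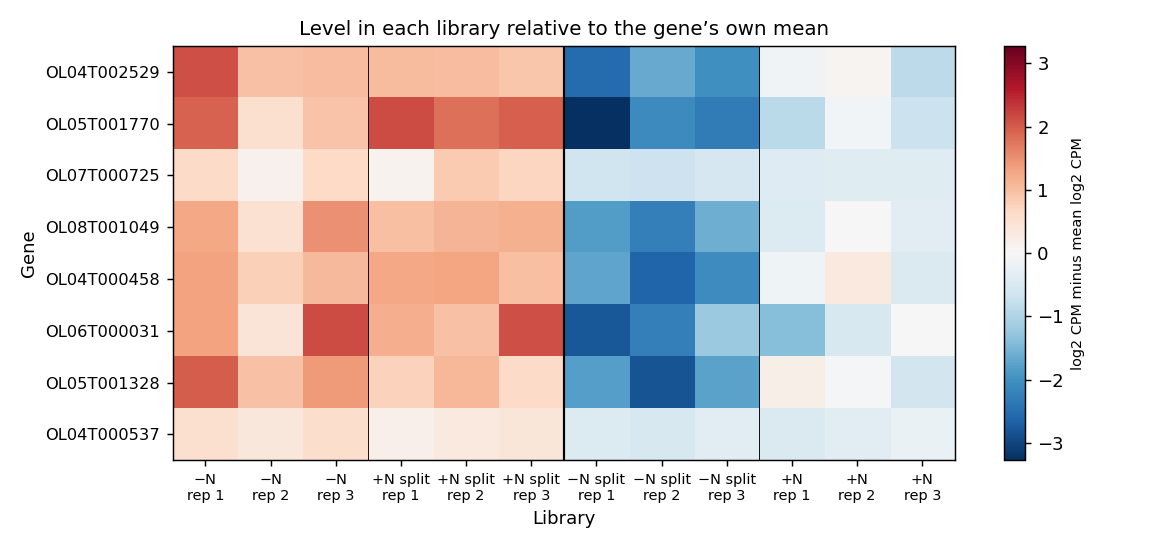
Level of each of the 8 genes (rows) in each of the 12 libraries (columns), as log2 CPM minus the mean log2 CPM of that gene over all libraries, on a colour scale from blue (low) to red (high). The lowest value of each of the 8 genes is in a −N split library, and within −N the second replicate is the lowest for all 8 genes.

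How the root's own supply acted on the 8 genes was compared separately under each supply of the partner. When the partner was supplied, 5 of the 8 genes were downregulated in −N split relative to +N roots, namely OL04T000458, OL08T001049, OL05T001328, OL04T002529 and OL05T001770, and none was upregulated (adjusted p under 0.05, quasi-likelihood test of edgeR, Benjamini-Hochberg adjusted over 25005 genes). Of all genes tested, 12.2% were downregulated in this comparison. The log2 fold change was below 0 in all 8 genes, with a median of −1.75 against −0.0041 over all genes. The −N split libraries did not overlap the +N libraries in 6 of the 8 genes, and lay below them without overlap in 15.4% of all genes. The same 5 genes were called with each of the 12 libraries left out in turn. The rule chose the 8 genes on these same libraries, and its ceiling bears on both groups compared. These calls are therefore a description and no independent support.

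When the partner was deprived, none of the 8 genes was called in −N relative to +N split roots by edgeR's quasi-likelihood test, 1 had an unadjusted p under 0.05 (35.1% of all genes did), and the DESeq2 Wald test also called 0. Of all genes tested, 24.2% were called in this comparison in either direction. The log2 fold changes ran from −0.82 to 0.57, with a median of −0.11 against 0.010 over all genes, and the libraries overlapped in all 8 genes, whereas 42.8% of all genes had libraries that did not overlap. The rule sets a floor for −N and +N split and a ceiling for −N split and +N, which limits the values within each of these pairs of groups. It asks for no overlap between deprived and supplied partners, and not between −N and +N split. OL05T001770 was called without −N replicate 1, and its adjusted p ranged from 0.0102 to 0.313 over the alternatives (quasi-likelihood test of edgeR or DESeq2 Wald test, Benjamini-Hochberg adjusted).

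**Figure D3:**
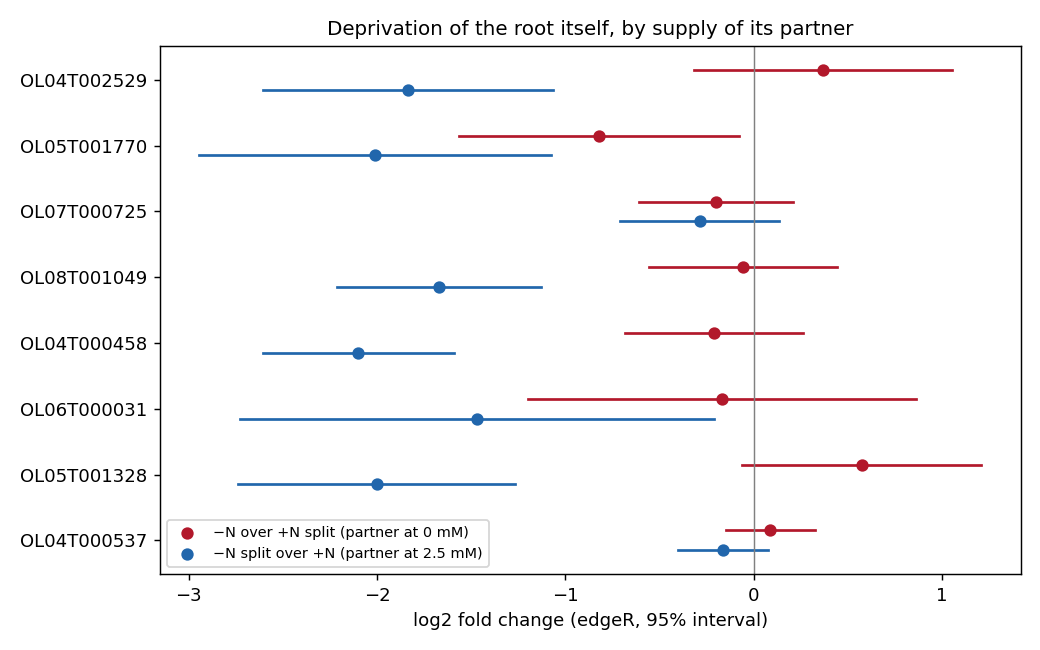
Log2 fold change for deprivation of the root itself (horizontal axis) for each of the 8 genes, as edgeR estimates with 95% intervals, in red for −N over +N split roots (partner at 0 mM) and in blue for −N split over +N roots (partner at 2.5 mM). The red points lie between −0.82 and 0.57 and the blue points between −2.10 and −0.16, and 6 of the 8 blue intervals and 1 of the 8 red intervals lie wholly below 0.

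The interaction term compares the root's own deprivation between the 2 partner supplies. The rule chose the genes from the same 12 libraries, and its floor and ceiling limit the group values that form this term. The values of the 8 genes beside all genes are therefore a description and no independent support. The interaction was above 0 in all 8 genes, that is, the log2 fold change in −N relative to +N split roots exceeded that in −N split relative to +N roots, by a median of 1.46 against 0.0048 over all genes. None of the 8 genes passed the adjusted threshold in edgeR's quasi-likelihood test, which called 0.064% of all genes, or 16. An unadjusted p under 0.05 was reached by 4 of the 8 genes and by 9.21% of all genes, and the DESeq2 Wald test called these 4 genes and 334 genes in all. They were OL05T001328 (interaction 2.58 ± 0.449 standard error, adjusted p = 0.0692), OL04T002529 (2.20 ± 0.474, adjusted p = 0.122), OL04T000458 (1.89 ± 0.317, adjusted p = 0.0662) and OL08T001049 (1.61 ± 0.338, adjusted p = 0.113), with Benjamini-Hochberg adjusted p-values from the quasi-likelihood test of edgeR. Without −N replicate 2, edgeR's test called 3 of them, OL05T001328, OL04T000458 and OL08T001049, and 59 genes in all, and without −N split replicate 1 it called OL04T000458 and 36 genes in all. The interaction of the resistance protein genes was small, 0.09 (95% interval −0.50 to 0.67) for OL07T000725 and 0.25 (95% interval −0.08 to 0.59) for OL04T000537.

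Averaged over both partner supplies, 5 of the 8 genes were lower in deprived than in supplied roots, the same 5 genes as with a supplied partner, against 18.5% of all genes (quasi-likelihood test of edgeR, Benjamini-Hochberg adjusted). The median log2 fold change was −0.78. With a deprived partner alone (−N relative to +N split) none of the 8 genes was called. Of the 5 genes, OL04T002529 (0.37) and OL05T001328 (0.57) were above 0 there on the log2 scale. OL05T001770 (−0.82), OL04T000458 (−0.21) and OL08T001049 (−0.06) were below 0. The rule chose the genes on these libraries, so the averaged calls are a description. The count of 5 averaged calls depended on single libraries and was 3 without +N replicate 1 and 6 without +N split replicate 1. OL07T000725 was called without +N split replicate 1 and OL06T000031 without −N replicate 3. The calls of OL05T001770, OL08T001049 and OL04T000458 held with each library left out. The call of OL04T002529 was lost without −N replicate 2 or 3, −N split replicate 1 or 3, or +N replicate 1 or 2, and that of OL05T001328 without −N split replicate 2, +N replicate 1 or +N split replicate 2.

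**Figure D4:**
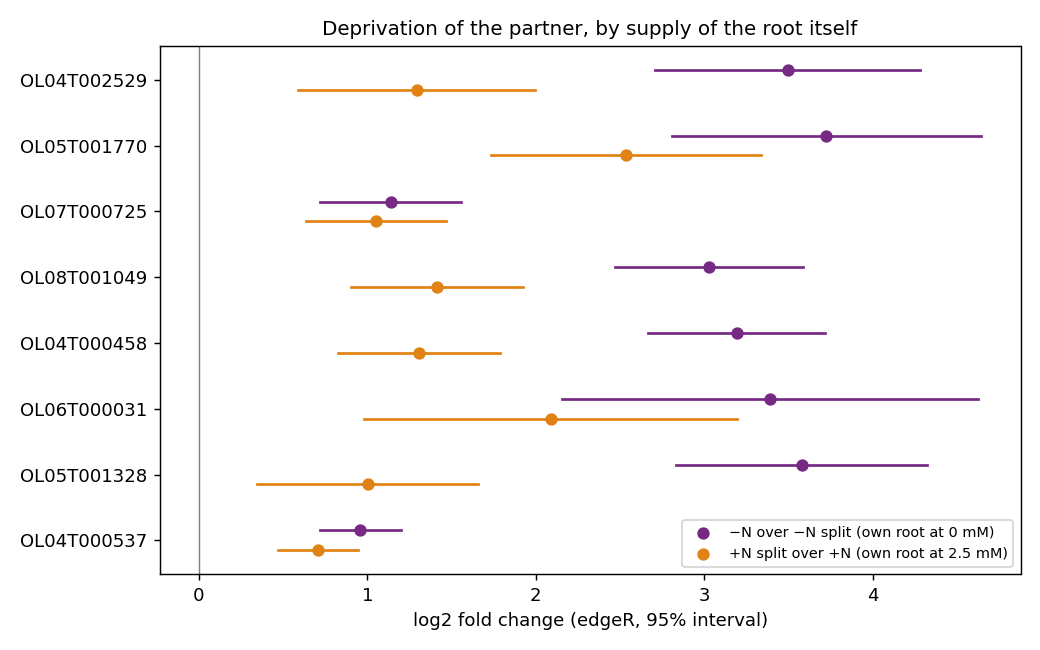
Log2 fold change for deprivation of the partner (horizontal axis) for each of the 8 genes, as edgeR estimates with 95% intervals, in purple for −N over −N split roots (own root at 0 mM) and in orange for +N split over +N roots (own root at 2.5 mM). The genes were chosen to be above 0 here, so the plot is a description, with purple points between 0.96 and 3.73 and orange points between 0.70 and 2.54.

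Deprivation of the partner went with log2 fold changes of 0.96 to 3.73 (median 3.29) in deprived roots, −N over −N split, and of 0.70 to 2.54 (median 1.3) in supplied roots, +N split over +N. The genes were chosen by these values. The estimate was larger in deprived than in supplied roots for all 8 genes, which is the same quantity as the interaction above. In mean CPM, the fold ranged from 1.91 to 13.1 in deprived roots and from 1.57 to 5.60 in supplied roots. The folds of the 2 resistance protein genes in deprived and supplied roots were within 1.3 times of each other, and the 6 other genes had at least 2 times the fold in deprived roots.

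For every gene the lowest group mean was that of −N split roots and the next that of +N roots. The mean in −N split roots was 0.246 to 0.938 times that in +N roots, and the mean in −N roots was 0.608 to 1.59 times that in +N split roots. Between −N split and +N the difference passed the test in 5 genes and not in OL07T000725, OL04T000537 and OL06T000031, and between −N and +N split it passed in none (edgeR, 1 of 8 at an unadjusted p under 0.05, against 35.1% of all genes). The genes were chosen on these libraries, so both counts are a description.

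Single libraries set the bounds of the rule. The second −N replicate, the deepest library with 56252511 counts, was the lowest of its group in all 8 genes, against 25.1% of all genes with the mean CPM required, and it was the lowest of the 6 libraries with a deprived partner for 4 of the 8 genes. The second +N replicate was the highest of the 6 libraries with a supplied partner for 5 of the 8 genes. Without −N replicate 2 the number of genes that meet the rule was 36, and without +N replicate 2 it was 21, and all 8 genes remained in both. The part of depth in the low values of −N replicate 2 was not tested.

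Of the 23 photosynthesis genes, 4 were lower and none higher in −N split relative to +N roots by edgeR's quasi-likelihood test, against 12.2% of all genes that were lower, and 22 had an unadjusted p under 0.05, with a median log2 fold change of −1.10. In −N relative to +N split roots 0 of the 23 were called by edgeR, 0 had an unadjusted p under 0.05 and the DESeq2 Wald test called 0, with a median of −0.38. Their summed level was 2229 CPM under −N split replicate 1, above all 3 −N libraries, and 763 and 659 CPM in replicates 2 and 3. Of 27 ribosomal protein genes, 21 were lower and 2 higher in −N split relative to +N roots, against 12.2% of all genes that were lower. In −N relative to +N split roots 4 were lower and 2 higher, against 24.2% of all genes called in either direction. Both lists hold only genes from tables of genes called in these libraries, so their shares called are no independent evidence. The part of both lists in the result was not tested.

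The ratio of the rule separated genes with similar values. The gene just inside was OL04T000537 at 1.3. The nearest genes below were OL06T001172, OL06T000772 and OL07T001607, each at 1.27. OL07T001607, described as a testis-specific kinase, a name from animals, had 18.6, 11.6 and 17.7 CPM under −N, 14.8, 19.0 and 16.2 CPM under +N split, 3.23, 2.76 and 3.72 CPM under −N split and 7.51, 9.10 and 8.17 CPM under +N. OL06T000772, described as a trehalose-phosphatase, an enzyme that releases the sugar trehalose from its phosphate, had 5.43, 3.20 and 4.44 CPM under −N, 8.09, 7.16 and 5.51 CPM under +N split, 1.27, 2.52 and 1.65 CPM under −N split and 1.86, 1.98 and 1.21 CPM under +N. OL06T001172, without description, had 7.06, 7.56 and 6.85 CPM under −N, 5.45, 4.89 and 5.82 CPM under +N split, 3.47, 2.62 and 3.27 CPM under −N split and 3.84, 3.42 and 3.02 CPM under +N. All 3 kept the libraries with deprived and supplied partners apart, as did 132 genes, or 0.67% of those with the mean CPM required.

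The same rule with other sides gave other numbers of genes. With the supplied partner on top, 204 genes, or 1.03% of 19761, had no overlap, and 2 genes, or 0.0101%, reached the ratio of 1.3. With the root's own supply in place of the partner's, 402 genes, or 2.02%, reached the ratio in deprived roots and 463 genes, or 2.32%, in supplied roots. These are counts of genes and no test was made of their difference.

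The descriptions of the 4 genes left out by name read plant cysteine oxidase or protein of unknown function (DUF1637). A plant cysteine oxidase is an enzyme that uses oxygen to mark proteins for breakdown. The ratios of the 4 genes were 1.26 for OL09T001188, described as plant cysteine oxidase 2, and 1.18 for OL01T000575. They were 0.961 for unmappedContigsT001274 and 0.785 for OL03T002532. OL01T000575 averaged 164 CPM under −N, 151 CPM under +N split, 32.1 CPM under −N split and 107 CPM under +N, and its interaction of 1.82 passed the threshold (Benjamini-Hochberg adjusted p = 0.00537, quasi-likelihood test of edgeR).

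None of the 8 genes belongs to the lists of known pathways drawn from the descriptions. These lists come from tables of genes called in these libraries and are no independent evidence of a direction. Of all genes tested, 12.2% were lower in −N split relative to +N roots (median log2 fold change −0.0041). In −N relative to +N split roots 24.2% were called in either direction (median 0.010), and the interaction was called in 0.064% (median 0.0048). The cysteine oxidase list holds genes described as cysteine oxidase or by DUF1637. With edgeR's quasi-likelihood test, all 5 of its genes were lower in −N split relative to +N roots (median log2 fold change −1.82). In −N relative to +N split roots 1 was lower (median −0.34). Of 12 fermentation genes (alcohol dehydrogenase and pyruvate decarboxylase), 9 were lower in the first of these comparisons and 7 in the second, with medians of −1.22 and −0.89. Glycolysis, which splits glucose into pyruvate, had 23 of 30 genes lower and 1 higher with a supplied partner, and 26 lower and 1 higher with a deprived partner. The interaction was called above 0 in 1 of the 5 cysteine oxidase genes, 3 of the 69 transcription factors and 1 of the 23 photosynthesis genes and below 0 in 1 of the 30 glycolysis genes, and its median over the fermentation genes was 0.12.

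Among 22 genes for hypoxia-induced domain proteins, universal stress proteins, remorins and prolyl 4-hydroxylases, 15 were lower and 7 higher in −N split relative to +N roots, and 7 were lower and 6 higher in −N relative to +N split roots (edgeR's quasi-likelihood test). Of 8 genes for ammonium transporters and the enzymes that assimilate ammonium, 4 were lower and 3 higher with a supplied partner, and 5 lower and 3 higher with a deprived one. Of 6 genes for sucrose-cleaving enzymes, 4 were lower and 1 higher with a supplied partner, and 2 lower and 1 higher with a deprived one. Transcription factors had 46 of 69 genes lower and 6 higher with a supplied partner, and 44 lower and 7 higher with a deprived one. Protein kinases had 59 of 113 genes lower and 25 higher with a supplied partner, and 51 lower and 31 higher with a deprived one. The libraries scaled by DESeq2 size factors gave counts within 1 gene of these for every list and both comparisons. Over all genes tested, 12.2% were lower with a supplied partner and 24.2% were called in either direction with a deprived one. The lists of this paragraph also hold only genes from tables of genes called in these libraries.

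In the numbering of their identifiers the 8 genes did not lie side by side. Of the 8 identifiers, 3 have the prefix 04 and 2 the prefix 05, and 06, 07 and 08 have 1 each, whereas these prefixes hold 8.48%, 8.03%, 7.62%, 7.59% and 6.17% of the genes with the mean CPM required. The expressed identifier nearest to OL04T002529 is OL04T002527, which had 45.4, 28.9 and 29.2 CPM under −N, 49.7, 50.7 and 44.3 CPM under +N split, 11.8, 13.0 and 8.07 CPM under −N split and 26.8, 26.6 and 25.8 CPM under +N. This neighbour also had all libraries with a deprived partner above all with a supplied partner, at a ratio of 1.08. It was chosen for description after its values were seen. The identifiers directly next to the 8 genes did not show this. Where a ratio could be formed, it ran from 0.226 (OL04T000536) to 0.957 (OL05T001771).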

How the data were processed

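Polyadenylated root RNA of 12 libraries was sequenced, and the authors aligned the reads with HISAT2 and deposited the raw count per gene model from featureCounts. The authors also deposited log2 CPM, checked here to equal edgeR's values without TMM scaling at a prior count of 2, and not used for tests. For tool versions, strand and read pairs the settings were not given in the sources used here. Gene names come from descriptions in the readable supplementary tables, 3992 of 29335 genes, joined by identifier number, and no genome was used. Columns of the study's own comparisons in those tables were not used.

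Counts were tested in R 4.3.3 with edgeR 4.0.16 (filterByExpr with minimum count 10 and minimum total count 15, TMM, a mean per group over 12 libraries with 8 residual degrees of freedom, glmQLFTest, Benjamini-Hochberg adjustment, threshold 0.05). Standard errors were derived from the log2 fold change and the F statistic of edgeR's quasi-likelihood test. The 95% intervals use these standard errors with a t quantile. The code was tested on simulated data. All 8 genes are named, with the 3 nearest below the ratio and the 4 genes left out. The members and the lists (fermentation, cysteine oxidase, hypoxia-induced and stress proteins, glycolysis, ammonium, sucrose cleavage, transcription factor, protein kinase, photosynthesis, ribosomal protein) were chosen with earlier results of these data known. The alternatives were DESeq2 1.42.0 size factors and Wald test, no filter, a replicate block, the 6 libraries compared, each library left out, and other scalings, ratios and CPM minimums for the rule. For a single gene, exact permutation of 3 against 3 libraries cannot give a p below 0.1. The shoot, tracer, hormone and growth measurements were not analysed here.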

Additional observations from a re-analysis of the deposited data

How the results depend on the processing

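The number of genes that meet the rule was 14 at a ratio of 1.2 and 2 at a ratio of 1.5, against 8 at 1.3, and ranged from 8 to 36 with single libraries left out. It was 8 with TMM-scaled CPM, of which 7 were the same genes, and 7 with DESeq2 size factors, of which 6 were the same, so OL06T000031 under both scalings and OL04T000458 under the size factors missed the ratio. With a mean of at least 1 CPM it was 8 and with at least 5 CPM it was 7.

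The number of the 8 genes called ranged over single libraries left out from 0 to 1 for the root's own deprivation with a deprived partner, from 5 to 5 with a supplied partner, from 3 to 6 averaged over partners and from 0 to 3 for the interaction. The DESeq2 Wald test called 4 of the 8 genes for the interaction, against 0 with edgeR's quasi-likelihood test, and the cause was not tested. Over all genes the interaction calls were 16 with edgeR's quasi-likelihood test, 334 with the DESeq2 Wald test and 7 to 59 with single libraries left out. No gene called in either fit changed direction under any of these alternatives. With 10 counts in the lowest libraries, OL05T001770 and OL06T000031 are limited by depth in −N split roots.

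Same-numbered libraries of different groups deviated together only weakly (correlations of −0.159 to 0.233, of which 6 of 18 were over 0.1), so the numbers were not taken to pair the libraries. Between +N split and −N split these correlations were −0.13, 0.104 and 0.079. Libraries of these groups may come from the 2 roots of the same ramet pairs, which the labels do not say. The tests without a block treated all 12 libraries as independent. A replicate block gave 0 calls with a deprived partner, 6 with a supplied partner, 6 averaged over partners and 0 for the interaction, and the added gene in both counts of 6 was OL06T000031.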

Other observations

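The 2 genes that met the ratio with the supplied partner on top were a cytochrome P450 and a glutaredoxin, a small enzyme that reduces disulfide bonds with glutathione. OL06T002065, described as cytochrome P450 71D7, had 2.66, 2.60 and 2.01 CPM under −N, 3.84, 2.37 and 3.89 CPM under +N split, 7.65, 10.3 and 9.08 CPM under −N split and 6.25, 5.34 and 6.91 CPM under +N. OL04T001635, described as glutaredoxin, had 65.4, 80.0 and 63.6 CPM under −N, 79.2, 62.6 and 83.7 CPM under +N split, 120 to 128 CPM under −N split and 112, 114 and 117 CPM under +N. The group means of both genes were highest in −N split roots, and the difference between partner supplies is given without a test because it chose the genes.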
